A study of Mus musculus with 8 samples.

Results

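Rapamycin given together with the MEK inhibitor PD-0325901 was compared with vehicle in malignant peripheral nerve sheath tumours taken from NPcis mice, across all 19938 genes that a probe set annotated to 1 gene symbol represents on the array. For a gene with several probe sets, the one with the highest mean over all arrays was taken. The comparison rests on 4 of the 8 arrays in the series: 2 titled vehicle and 2 titled with both drugs, here called the combination. The combination was rapamycin at 5 mg/kg by intraperitoneal injection plus PD-0325901 at 1.5 mg/kg by oral gavage, with 2 doses of the latter per day, and treatment lasted 14 hours in every group, vehicle included. The other 4 arrays, 2 of rapamycin alone and 2 of PD-0325901 alone at the same doses, entered the model and serve as reference points. All groups share the NPcis background, a model that carries mutations of Nf1 and Trp53 on the same chromosome, so no group has tumours with intact Nf1. The labels do not give age, sex or the number of animals, and do not say whether the arrays of a group came from separate animals, so p-values measure only the spread between these samples. Trp53 was not analysed here. Nf1 itself read 10.26 and 10.49 in vehicle and 9.72 and 10.07 in the combination, a difference of -0.48 ± 0.21 (log2 scale, limma's SE, adjusted p = 0.569). Where its probes lie relative to the mutation is not given in the sources used here, so this level checks no label.

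NF1 protein is a GTPase-activating protein that returns Ras to its inactive form. Without it, Ras drives the RAF, MEK and ERK kinase cascade, which switches on immediate early genes, D cyclins and its own feedback inhibitors, and also feeds the mTORC1 kinase complex, which promotes ribosome production, protein synthesis, glycolysis and lipid synthesis. PD-0325901 blocks MEK, and rapamycin blocks mTORC1 through FKBP12. The series title places the study among searches for signalling nodes and treatment biomarkers in cancers with mutant NF1, and the comparison asks which transcripts differ when both branches are inhibited.

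Values are deposited log2 levels. Array medians over the genes ran from 8.23 to 8.27. Across genes, which are not independent replicates, the 2 vehicle arrays correlated at r = 0.965, the 2 combination arrays at r = 0.973, and arrays of the 2 groups at 0.955 to 0.971, so the groups were not separated by overall similarity. Features unrelated to the labels set some arrays apart. Vehicle array 1 held a run of raised genes on chromosome 9: of 29 genes from Cwf19l2 to Cep126, 20 were highest there (69% against 16.9% of all genes), with a median of 1.88 above vehicle array 2. Yap1, in that run, read 12.74 on vehicle array 1 and 9.78 to 10.63 on the other 7 arrays. A second run, Chordc1 to Zfp317, had 20 of 27 genes highest on vehicle array 1 (74.1%). The sex-linked genes also differed within groups. Xist read 5.92 and 5.95 in vehicle but 7.09 and 11.47 in the combination, and the Y-linked gene Uty read 8.26 and 8.19 in vehicle but 9.95 and 5.59 in the combination. Combination array 2 thus carried the opposite pattern to the vehicle arrays, and combination array 1 did not. Xist read 11.58 and 10.70 with rapamycin alone and 5.91 and 11.54 with PD-0325901 alone, and Uty 5.44 and 5.47, and 8.79 and 5.30, so rapamycin alone against vehicle cannot be told apart from this sex-linked split, and every comparison that uses rapamycin arrays carries it. Tissue markers differed too, as the mean over a list of levels minus each gene's 8-array mean. For adipocyte markers it was 2.14 on rapamycin array 1 and -0.51 to 0.19 on the other 7 arrays. For mast cell markers it was 1.10 on rapamycin array 1 and -0.39 to 0.32 elsewhere. For skeletal muscle markers it was 1.66 on rapamycin array 2 and -0.90 to 0.71 elsewhere. The part of these features in the results below was not tested beyond leaving out each array. Among markers of nerve sheath, Sox10 read 7.85 to 8.17 and S100b 7.12 to 7.32 over the 8 arrays. The table holds no detection calls, so such levels cannot be read as present or absent.

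In the combination, mRNAs for interleukin 1 beta, ribosome assembly, DNA replication and glycolysis were lower than in vehicle, and those for dendritic cell and class II antigen presentation genes were higher, as measured values. No single gene passed a threshold of 0.05 on the adjusted p (limma, Benjamini-Hochberg over 19938 genes; lowest 0.351), so no gene is called changed. At an unadjusted p under 0.05, 1012 genes were higher in the combination (5.08%) and 797 lower (4%), against 997 in all that would be there with no difference. The arrays of the groups did not overlap for 3561 genes on the higher side (17.9%) and 4450 on the lower side (22.3%). The median difference over all genes was -0.02, with 46.3% of genes higher and 53.7% lower. The median absolute difference between the group means was 0.146, and that between the 2 single vehicle arrays was 0.170. A mean of 2 arrays varies less than a single array, so these values cannot be compared directly. A log2 difference beyond 1 was present for 164 genes on the higher and 177 on the lower side. Leaving out an array changed the counts at unadjusted p under 0.05: with vehicle array 1 dropped they were 792 higher and 688 lower, with vehicle array 2 dropped 916 and 891, with combination array 1 dropped 858 and 691, and with combination array 2 dropped 880 and 414. Without vehicle array 2, 9 genes passed the adjusted threshold, all lower in the combination, of which 8 lie on chromosome 9 (Cep126, Chordc1, Dcun1d5, Olfr843, Olfr846, Olfr847, Zfp317 and Zfp558, named here after their values were seen; Ocstamp on chromosome 2 is the other). Those genes were then compared with vehicle array 1, where the chromosome 9 run is raised. An exact permutation test of 2 against 2 arrays cannot go below p = 0.333.

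The gene with the smallest p was Il1b, the inflammatory cytokine interleukin 1 beta. It read 9.95 and 9.44 in vehicle and 7.16 and 7.53 in the combination, with rapamycin alone at 8.29 and 8.27 and PD-0325901 alone at 7.91 and 7.87. Every treated array was below both vehicle arrays, and the combination arrays were the lowest. The difference was -2.35 ± 0.20 (adjusted p = 0.351), and -2.09 to -2.60 when an array of either group was left out. Rgs1, a regulator of G-protein signalling in leukocytes, read 10.14 and 9.48 in vehicle and 6.91 and 7.18 in the combination, a difference of -2.77 ± 0.33; PD-0325901 alone gave 6.45 and 7.25, so the combination was no lower than that drug by itself. These are bulk tumours, in which fewer cells of a type and less RNA per cell cannot be told apart. Haus6, a subunit of the augmin complex that nucleates spindle microtubules, read 9.23 and 9.24 in vehicle and 8.28 and 8.13 in the combination (-1.03 ± 0.11), with both single drugs in between. Ccnc, the cyclin C of the Mediator kinase module, read 9.14 and 9.23 against 8.47 and 8.23 (-0.83 ± 0.12).

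The other 6 genes with the smallest p on the lower side had differences of -0.72 to -1.24. Gnl2, a nucleolar GTPase of large-subunit assembly, read 10.16 and 10.23 in vehicle and 9.45 and 9.38 in the combination (-0.77 ± 0.10). Taf1d, a subunit of the RNA polymerase I selectivity factor whose introns carry small nucleolar RNAs, read 12.87 and 12.43 against 11.43 and 11.38 (-1.24 ± 0.18). These values are from the highest of its 9 probe sets, and whether that one reads the mRNA was not tested. Polr1d, shared by RNA polymerases I and III, read 10.56 and 10.59 against 9.91 and 9.71 (-0.76 ± 0.12). Hspe1, the mitochondrial co-chaperonin, read 11.26 and 11.30 against 10.56 and 10.55 (-0.72 ± 0.10). In all 4 genes each combination array lay at least 0.65 below the lower vehicle array. Gpr31b, a G-protein coupled receptor gene, differed by -1.02 ± 0.14 and Fam131b by -1.02 ± 0.15. Fam131b read 7.69 and 7.50 in the combination, near rapamycin alone (7.82 and 7.88), whereas PD-0325901 alone (8.73 and 8.61) was within the vehicle values of 8.42 and 8.80.

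On the higher side, Cd300c2, an immune receptor of the CD300 family, had the smallest p. It read 9.70 and 9.59 in vehicle and 10.53 and 10.46 in the combination (0.85 ± 0.10, adjusted p = 0.351); PD-0325901 alone read 10.54 and 10.49, level with the combination, and rapamycin alone 9.50 and 9.39. Iqgap2, a scaffold protein of the IQGAP family, was alike: 8.90 and 9.36 in vehicle, 10.42 and 10.50 in the combination (1.33 ± 0.17), 10.24 and 10.45 with PD-0325901 alone and 9.27 and 9.14 with rapamycin alone. Tmem35a, which assists acetylcholine receptor assembly, read 6.92 and 7.06 against 8.34 and 8.57 (1.47 ± 0.20), and Gpr155, a lysosomal cholesterol sensor, 7.82 and 8.02 against 9.56 and 9.13 (1.43 ± 0.20). For these 4 genes the values of the combination overlapped those of PD-0325901 alone. Crat, the carnitine acetyltransferase of mitochondria, instead had both single drugs between vehicle and combination: 9.92 and 9.88 in vehicle, 10.31 to 10.47 over the 4 arrays of single drugs, and 10.69 and 10.83 in the combination (0.86 ± 0.11). Zfp276, Lrrc61, Bcas3, Ap3m2 (a subunit of the AP-3 vesicle adaptor) and Snhg11 (a host transcript of small nucleolar RNAs) completed the first 10, with differences of 0.76 to 1.0. Snhg11 read 7.45 and 7.25 in vehicle, 7.31 to 7.65 with single drugs and 8.23 and 8.46 in the combination; its difference of 1.0 ± 0.14 was 0.56 with the mean of its 2 probe sets.

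Ranking by the gap between the nearest arrays of the groups gave larger but more scattered differences. Stmn2, a neuronal microtubule regulator, had the widest gap: 7.52 and 6.90 in vehicle, 12.57 and 10.46 in the combination (4.31 ± 1.33, adjusted p = 0.448), and anywhere from 8.32 to 11.90 with single drugs. Cadps, which primes dense-core vesicles for release, read 6.60 and 7.28 against 9.52 and 9.20 (2.42 ± 0.37). Adgre4, an adhesion receptor of myeloid cells, read 6.26 and 5.57 against 8.60 and 7.79 (2.28 ± 0.35). In both genes all 4 single-drug arrays lay between the groups. Bche (butyrylcholinesterase, 2.52 ± 0.61), Cyp27a1 (a mitochondrial sterol hydroxylase, 1.48 ± 0.30), Unc5c (a netrin receptor, 1.73 ± 0.49) and Clec9a (a receptor of cross-presenting dendritic cells, 1.30 ± 0.34) followed. Car3, the carbonic anhydrase of muscle and fat, had its highest values with rapamycin alone (12.56 and 11.62) and read 7.69 and 7.10 in vehicle and 10.37 and 9.34 in the combination. Adipocyte markers were highest on rapamycin array 1 and skeletal muscle markers on rapamycin array 2, and their part in Car3 was not tested. Sfrp1, a secreted Wnt inhibitor, read 7.31 and 7.20 in vehicle and 8.58 and 9.48 in the combination (1.78 ± 1.04).

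On the lower side of that ranking, Igf2, the fetal growth factor that acts through the IGF1 receptor, read 11.55 and 11.90 in vehicle and 7.79 and 9.35 in the combination (-3.15 ± 0.93, adjusted p = 0.439). Single drugs ranged from 8.47 to 11.01, so its spread between arrays of a group was large. Ak4, a mitochondrial adenylate kinase, was tighter, at 10.16 and 10.06 against 8.33 and 8.00 (-1.95 ± 0.32, or -1.32 with the mean of its 2 probe sets), and all 4 single-drug arrays (8.50 to 9.44) lay in between. Krt18, a simple-epithelium keratin, read 12.03 and 9.74 in vehicle and 8.30 and 7.79 in the combination (-2.84 ± 0.91; -1.70 without vehicle array 1). H1f1, a linker histone, read 11.34 and 11.56 against 9.91 and 9.68 (-1.65 ± 0.46). Pcolce2, an enhancer of procollagen processing, read 10.26 and 8.72 against 7.19 and 7.11 (-2.34 ± 0.67). Fndc3c1 (-2.12 ± 0.81) and Spaca1, a sperm acrosome gene (-1.80 ± 0.85), scattered with the single drugs, from 5.68 to 8.50 for Spaca1. Olfr847 (-3.64; -1.72 without vehicle array 1) belongs to the second chromosome 9 run raised on vehicle array 1.

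**Figure D1:**
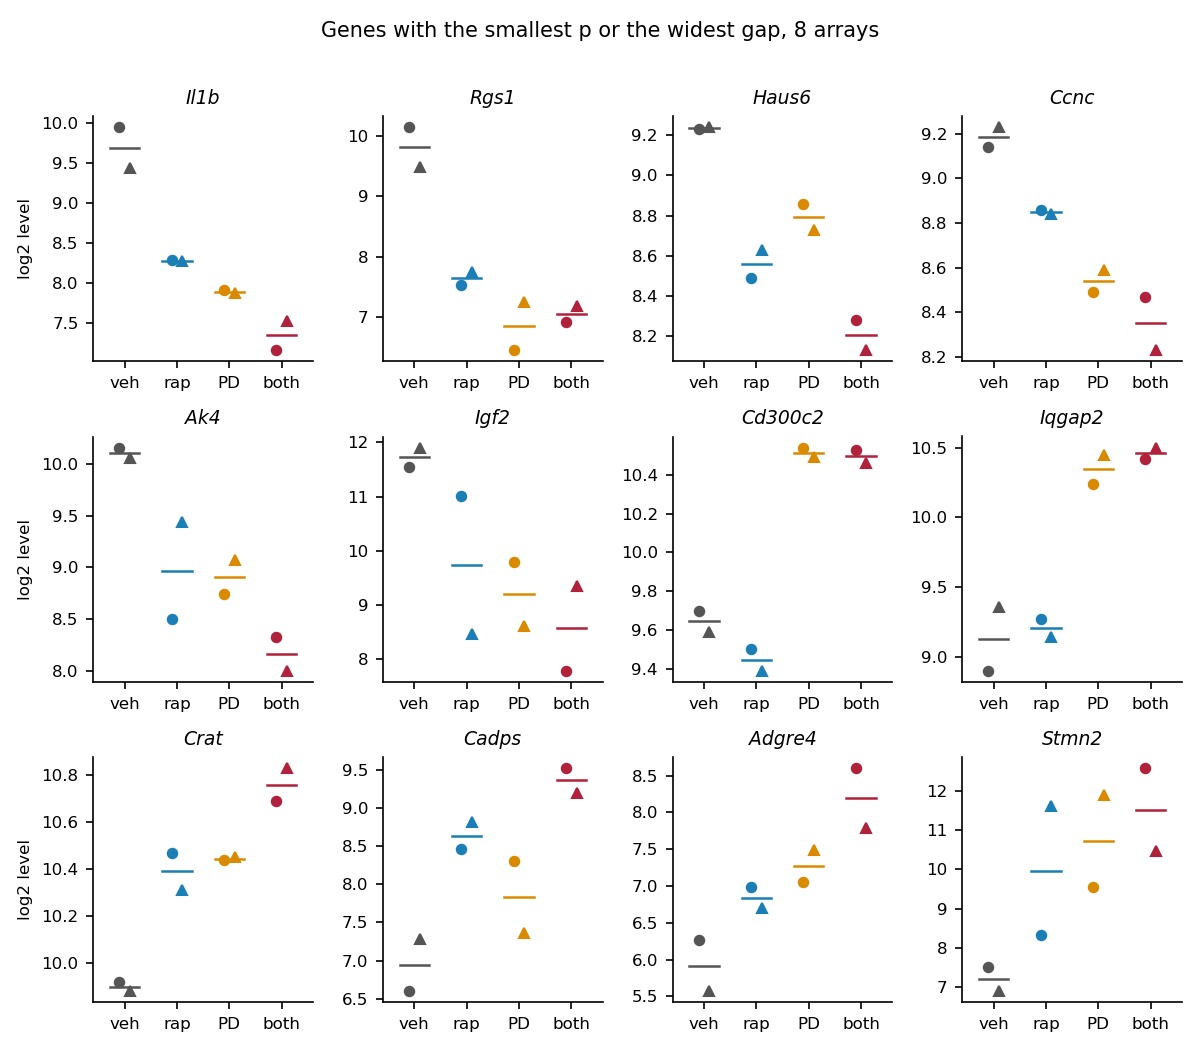
Log2 level (y axis, scaled per gene) of 12 genes in vehicle (veh), rapamycin (rap), PD-0325901 (PD) and the combination (both); circles are array 1, triangles array 2 and bars the group mean. Il1b, Haus6 and Ak4 are lowest in the combination with single drugs in between, Cd300c2 and Iqgap2 are as high with PD-0325901 alone as in the combination, and Igf2 and Stmn2 scatter widely within groups.

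The pathways the drugs act on were described with lists of genes, each by the median difference of its measured members, their counts at an unadjusted p under 0.05 (background 5.08% higher, 4% lower) and the counts whose arrays did not overlap (background 17.9% and 22.3%). For the ERK output list of 31 genes the median was -0.43; 26 were lower, 7 of them at an unadjusted p under 0.05 and 19 without overlap. Hbegf, an EGF receptor ligand and ERK target, read 10.87 and 10.23 in vehicle and 9.32 and 9.0 in the combination (-1.39 ± 0.30, adjusted p = 0.359). Rapamycin alone left Hbegf at 10.38 and 10.72, among the vehicle values, and PD-0325901 alone gave 9.69 and 9.09. Spred1, an inhibitor of Ras activation that works with NF1 protein, read 10.54 and 10.59 against 10.15 and 10.14 (-0.43 ± 0.09), and Spred2 and Spred3 of the same family differed by -0.27 ± 0.11 and -0.46 ± 0.15. Dusp5, a nuclear ERK phosphatase, read 10.34 and 9.80 against 9.24 and 8.83 (-1.03 ± 0.30), Plaur, the urokinase receptor, 10.22 and 9.14 against 8.72 and 8.20 (-1.22 ± 0.37), and Myc 11.72 and 11.50 against 11.05 and 10.77 (-0.70 ± 0.27). Dusp6, the cytoplasmic ERK phosphatase, was not among the 7: it read 11.18 and 10.84 against 10.43 and 10.15 (-0.72 ± 0.41, adjusted p = 0.669), and Spry4, a receptor feedback inhibitor, 9.74 and 10.01 against 9.59 and 9.34 (-0.41 ± 0.22). Etv4, an ETS factor induced by ERK, read 8.67 and 8.49 against 9.13 and 8.03, with overlapping groups. The list's median was -0.39 to -0.51 when an array of either group was left out, and the count of 7 became 4 without vehicle array 1 or combination array 2.

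Immediate early genes, first to answer ERK and serum response factor, had a median of -0.51 over 20 members, with 4 lower at an unadjusted p under 0.05 and 10 lower without overlap. Fosb, an AP-1 subunit, read 8.56 and 8.60 in vehicle and 7.73 and 7.84 in the combination (-0.80 ± 0.13, adjusted p = 0.351), the same range as with PD-0325901 alone (7.80 and 7.76). Nr4a1, an orphan nuclear receptor, read 9.60 and 11.01 against 8.24 and 8.40 (-1.99 ± 0.43), and Fos 9.62 and 8.25 against 7.74 and 7.62 (-1.25 ± 0.43). Both had an outlying vehicle array, array 2 for Nr4a1 and array 1 for Fos. Ier2 differed by -0.54 ± 0.21. The count of 4 became 2 without combination array 2. Of 12 heat shock genes, which respond to unfolded protein and to handling, 11 were lower, 5 of them at an unadjusted p under 0.05 (2 to 7 with an array of either group left out), with a median of -0.36 (-0.18 without vehicle array 1). Hspd1, the mitochondrial chaperonin and partner of Hspe1, read 11.99 and 11.87 against 11.08 and 10.84 (-0.97 ± 0.16), Hsph1 10.87 and 10.20 against 9.40 and 9.47 (-1.10 ± 0.33), and Dnaja1, a cytosolic co-chaperone, 11.62 and 11.50 against 11.16 and 11.14 (-0.41 ± 0.12). Bag3 differed by -0.32 ± 0.12.

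Upstream of ERK, 12 receptor tyrosine kinases and insulin receptor substrates had a median of -0.08, with 0 at an unadjusted p under 0.05 and 3 lower and 1 higher without overlap. Irs1, the insulin receptor substrate that mTORC1 restrains, read 10.05 and 9.64 in vehicle, 11.16 and 10.08 in the combination and 10.91 and 10.54 with rapamycin alone (combination 0.77 ± 0.44). Irs2 read 9.68 and 9.97 against 10.02 and 9.54 and overlapped. Erbb2 read 8.82 and 8.93 in vehicle and 8.80 and 8.76 in the combination, but 8.21 and 8.39 with PD-0325901 alone. Kit, the stem cell factor receptor, differed by -0.49 ± 0.25 and Insr by -0.10 ± 0.12. Pdgfra ranged from 9.23 to 12.69 within vehicle, and its difference of 0.96 became -0.77 without vehicle array 1. Over 16 Ras and RasGAP genes the median was 0.06 with 0 at an unadjusted p under 0.05; Rasa2, a RasGAP like NF1 protein, differed by -0.57 ± 0.24 (8.86 and 8.85 against 8.46 and 8.11), Rasal2 by -0.41 ± 0.20, Rras by 0.24 ± 0.11 and Dab2ip by 0.25 ± 0.17.

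The list of mTOR complex and TSC genes had a median of 0.01 over 27 members (-0.01 with each array centred on its median) and held differences in both directions, 3 higher and 3 lower at an unadjusted p under 0.05. With an array of either group left out, 2 or 3 were higher and 1 to 4 lower, the 1 without vehicle array 1 or combination array 2. Mapkap1, the SIN1 subunit of mTORC2, read 9.98 and 10.07 in vehicle and 10.68 and 10.48 in the combination (0.55 ± 0.11, adjusted p = 0.359). Tsc1, the hamartin subunit of the complex that inactivates Rheb, read 9.19 and 9.38 against 9.77 and 10.09 (0.64 ± 0.15). For Mapkap1 all 4 single-drug arrays lay between the groups (10.13 to 10.29), and for Tsc1 their values of 9.37 to 9.58 overlapped vehicle. Rheb, the GTPase that activates mTORC1, was 10.51 and 10.46 in vehicle, 10.21 and 10.14 in the combination (-0.32 ± 0.09), 10.18 and 10.23 with PD-0325901 alone and 10.72 and 10.77 with rapamycin alone. Flcn, the folliculin GTPase-activating protein of lysosomal nutrient sensing, differed by 0.45 ± 0.16, and Prr5, an mTORC2 partner, by -0.85 ± 0.25. FOXO factors, which AKT keeps out of the nucleus, drive another list of 23 genes: its median was 0.28 (0.13 to 0.19 with an array of either group left out), with 4 higher (2 without vehicle array 1) and 1 lower at an unadjusted p under 0.05 and 10 higher without overlap. Sesn1, a sestrin that restrains mTORC1, read 9.45 and 9.67 against 10.68 and 10.15 (0.86 ± 0.21), Ccng2, a cyclin of quiescent cells, 8.41 and 8.84 against 9.36 and 9.35 (0.73 ± 0.18), and Pik3ip1, a PI3K inhibitor, 8.08 and 8.25 against 8.84 and 9.16 (0.83 ± 0.31). Map1lc3b, the LC3B protein of autophagosomes, differed by 0.47 ± 0.16. The lower gene was Bnip3, a mitophagy receptor that is also a hypoxia target.

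Ribosome biogenesis genes were the list with the most members at an unadjusted p under 0.05. Of 29 genes, 28 were lower in the combination, 18 of them at an unadjusted p under 0.05 (background 4%) and 27 without overlap (background 22.3%), with a median of -0.69. Single drugs gave medians of -0.44 with rapamycin and -0.28 with PD-0325901 against the same vehicle arrays. Ncl, the nucleolar protein nucleolin, read 11.29 and 11.42 in vehicle and 10.89 and 10.70 in the combination (-0.56 ± 0.11, adjusted p = 0.359). Rrp12, a pre-ribosome export factor, read 8.87 and 8.86 against 8.03 and 8.01 (-0.85 ± 0.18). Nolc1, a chaperone of small nucleolar ribonucleoproteins, read 10.70 and 10.55 against 9.88 and 9.71 (-0.83 ± 0.18). Wdr12, of the PeBoW complex of large-subunit maturation, read 8.88 and 9.09 against 8.30 and 8.43 (-0.62 ± 0.13), and Ltv1, a small-subunit assembly factor, 8.83 and 8.76 against 7.99 and 8.16 (-0.72 ± 0.16). In each of these 5 genes the combination arrays lay at least 0.40 below the nearest vehicle array. Rapamycin array 1, at 8.04 for Rrp12 and 9.78 for Nolc1, was about as low as the combination, and rapamycin array 2, at 8.58 and 10.17, was not. Dkc1, the pseudouridine synthase dyskerin, had the most negative difference, -1.43, and Ubtf, a factor of RNA polymerase I promoters, was the 1 member that was higher, by 0.08. The median was -0.60 to -0.75 when an array of either group was left out; the count of 18 became 8 when vehicle array 1 or combination array 2 was dropped, 12 when vehicle array 2 was and 11 when combination array 1 was.

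CACGTG, the E-box to which MYC and related factors bind, was searched on both strands in promoter windows from 250 bases before to 50 bases after each start (RefSeq, GRCm38.p6). Of the 25 ribosome biogenesis genes with a window, 8 held it (32.0%), against 8.09% of all 27025 genes with one. The window of Nop2, an rRNA methyltransferase among those 8, is shown because its match, in capitals, begins 60 bases before the start; it lies at chr6:125131633-125131932, plus strand. A match describes letters, not a bound site, and the share describes the list without using the measured differences.
Nop2: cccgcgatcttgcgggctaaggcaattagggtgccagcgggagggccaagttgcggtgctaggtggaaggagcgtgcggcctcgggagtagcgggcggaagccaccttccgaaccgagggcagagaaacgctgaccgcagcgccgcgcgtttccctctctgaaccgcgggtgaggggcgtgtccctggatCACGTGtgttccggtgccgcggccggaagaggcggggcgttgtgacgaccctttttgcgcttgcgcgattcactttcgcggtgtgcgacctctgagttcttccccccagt

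Genes of the cell cycle were lower as lists. Of 39 genes of G1/S and DNA replication 38 were lower, 7 at an unadjusted p under 0.05 and 35 without overlap, with a median of -0.55 (-0.49 to -0.61 when an array of either group was left out). Cyclin E genes open S phase: Ccne1 read 9.55 and 9.32 in vehicle and 8.50 and 8.26 in the combination (-1.06 ± 0.22, adjusted p = 0.359), and Ccne2 8.90 and 9.23 against 7.70 and 7.68 (-1.38 ± 0.39). Rapamycin array 1, at 8.28 for Ccne1 and 7.55 for Ccne2, was as low as the combination, while rapamycin array 2 read 8.85 and 8.77. Chaf1b, of the histone chaperone CAF-1, read 9.67 and 9.46 against 8.80 and 8.39 (-0.97 ± 0.25), Cdc45, of the replicative helicase, 9.45 and 9.30 against 8.84 and 8.53 (-0.69 ± 0.18), and Pcna, the polymerase clamp, 11.17 and 11.44 against 10.65 and 10.42 (-0.77 ± 0.30). The count of 7 fell to 3 when vehicle array 2 was dropped, to 4 for combination array 1 and to 1 for combination array 2. The mitosis list of 31 genes had a median of -0.37, with 4 lower at an unadjusted p under 0.05 (0 without vehicle array 2 and 1 without either combination array) and 21 without overlap. Kif11, the spindle kinesin Eg5, read 10.12 and 10.45 against 9.66 and 9.59 (-0.66 ± 0.21), and Cdk1 10.23 and 10.14 against 9.23 and 9.58 (-0.78 ± 0.27). Plk1 and Ttk, kinases of mitotic entry and the spindle checkpoint, differed by -0.70 ± 0.26 and -0.40 ± 0.14. Mki67, the proliferation antigen Ki-67, read 10.70 and 10.97 against 10.33 and 10.48 (-0.43 ± 0.40, adjusted p = 0.803), with rapamycin arrays at 9.82 and 11.11.

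The 11 D cyclins, their kinases and CDK inhibitors had a median of -0.02 and 0 at an unadjusted p under 0.05. Of these, 5 were higher and 6 lower. Without overlap, 4 were higher (background 17.9%) and 2 lower (background 22.3%). Ccnd1, the D cyclin induced by ERK, read 11.92 and 12.18 against 11.61 and 11.70 (-0.39 ± 0.31, adjusted p = 0.768). The higher genes without overlap included 3 CDK inhibitors. Cdkn1b, p27, differed by 0.45 ± 0.18 and Cdkn2a by 0.55 ± 0.36, and Cdkn2b read 10.27 and 10.03 against 10.84 and 10.65 (0.59 ± 0.36). Cdk4 differed by -0.20 ± 0.13. Among 14 genes of the BCL2 family, which decide mitochondrial apoptosis, 2 were higher and 2 lower at an unadjusted p under 0.05. The higher pair were BH3-only killers: Bmf read 9.01 and 9.16 against 9.77 and 9.93 (0.76 ± 0.18, adjusted p = 0.389), and Bcl2l11, the protein BIM that ERK marks for degradation, 9.43 and 9.70 against 10.61 and 10.36 (0.92 ± 0.25, adjusted p = 0.436). PD-0325901 alone read 9.43 and 9.74 for Bmf, between the groups, and 10.05 and 10.42 for Bcl2l11, overlapping the combination. The lower pair were also BH3-only genes: Bid read 9.36 and 8.61 against 8.41 and 8.25 (-0.66 ± 0.25) and Bik 8.05 and 7.81 against 7.55 and 7.63 (-0.34 ± 0.12). Bcl2l1, the survival gene of BCL-xL, differed by -0.32 ± 0.16. Leaving out vehicle array 1 or combination array 1 left 1 higher, and leaving out either of these or combination array 2 left 0 lower.

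Glucose uptake and glycolysis genes had a median of -0.57 over 19 members, with 15 lower, 7 at an unadjusted p under 0.05 and 14 without overlap. Single drugs gave medians of -0.21 with rapamycin and -0.07 with PD-0325901. Slc2a1, the glucose transporter GLUT1, read 12.49 and 11.81 in vehicle, 11.47 and 11.82 with rapamycin alone, 11.47 and 11.84 with PD-0325901 alone and 10.94 and 11.09 in the combination (-1.13 ± 0.26, adjusted p = 0.380). The combination arrays were the lowest of the 8. Slc16a3, the lactate exporter MCT4, read 10.20 and 10.45 against 9.35 and 9.08 (-1.11 ± 0.21), with single drugs at 9.55 to 10.01. Ldha, lactate dehydrogenase A, read 12.35 and 12.47 against 11.66 and 11.72 (-0.72 ± 0.15), with single drugs at 11.98 to 12.40. Pgam1 (-0.64 ± 0.18) and Pkm (-0.37 ± 0.10), the mutase and the pyruvate kinase of lower glycolysis, and Pgk1, phosphoglycerate kinase (12.37 and 11.85 against 11.17 and 10.90, -1.08 ± 0.31), were also below all vehicle and single-drug arrays. Hk2, the inducible hexokinase, read 9.78 and 9.32 against 9.16 and 8.79 (-0.57 ± 0.32). Leaving out vehicle array 1 gave a median of -0.31, and the count of 7 became 4 without that array and 3 without combination array 2.

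Txnip, the thioredoxin-interacting protein that restrains glucose uptake, read 11.34 and 11.54 in vehicle, 12.43 and 11.48 with rapamycin alone, 11.96 and 12.06 with PD-0325901 alone and 12.06 and 12.18 in the combination. Its groups did not overlap, with a difference of 0.68 ± 0.30 (adjusted p = 0.582). Arrdc4, a paralogue under the same glucose sensor, read 8.82 and 8.55 against 8.82 and 8.67 and overlapped (0.06 ± 0.30). The 8 targets and parts of that sensor had a median of 0.06 and 0 at an unadjusted p under 0.05.

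The promoter windows of Slc2a1, Ldha and Txnip are shown because Slc2a1 and Ldha read lower in the combination and Txnip higher, none past the adjusted threshold. ACGTG, the core of the hypoxia response element, was searched on both strands; any CACGTG contains it in both directions. It was held by 13 of 18 glycolysis genes with a window (72.2%) and 12 of 16 hypoxia genes outside glycolysis (75.0%), against 21.8% of all genes with one. Capitals mark it for Slc2a1 (chr4:119108495-119108794, plus strand) and Ldha (chr7:46845554-46845853, plus strand, 1 of its 2 windows, with 5 matches counted over both strands). For Txnip (chr3:96557707-96558006, plus strand) capitals mark the carbohydrate response element motif, a pair of CACGNG boxes on 1 strand spaced by 5 bases, which 0.0555% of genes with a window held and 1 of 7 genes of the sensor list. The lists were written from textbook knowledge, and the shares were not split by the measured differences. They describe the lists and not these arrays.
Slc2a1: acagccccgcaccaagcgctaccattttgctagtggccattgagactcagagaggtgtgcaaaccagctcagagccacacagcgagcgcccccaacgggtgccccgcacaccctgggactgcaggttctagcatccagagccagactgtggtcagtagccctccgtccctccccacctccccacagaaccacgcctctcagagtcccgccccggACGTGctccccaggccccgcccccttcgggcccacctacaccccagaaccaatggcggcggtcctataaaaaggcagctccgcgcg
Ldha: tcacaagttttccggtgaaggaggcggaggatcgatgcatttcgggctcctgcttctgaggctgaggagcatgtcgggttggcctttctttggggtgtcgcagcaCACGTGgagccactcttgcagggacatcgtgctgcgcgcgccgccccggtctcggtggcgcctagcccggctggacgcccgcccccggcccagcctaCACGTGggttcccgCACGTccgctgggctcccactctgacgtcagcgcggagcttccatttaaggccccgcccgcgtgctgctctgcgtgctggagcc
Txnip: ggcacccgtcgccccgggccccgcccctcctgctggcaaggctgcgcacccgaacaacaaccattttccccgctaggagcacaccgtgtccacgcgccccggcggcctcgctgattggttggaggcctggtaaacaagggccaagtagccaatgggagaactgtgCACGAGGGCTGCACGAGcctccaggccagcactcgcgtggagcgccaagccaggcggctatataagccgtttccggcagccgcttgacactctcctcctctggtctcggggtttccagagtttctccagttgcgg

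Hypoxia genes outside glycolysis, targets of HIF factors, had a median of -0.46 over 19 members, with 16 lower, 3 at an unadjusted p under 0.05, and 7 without overlap. Car9, a surface carbonic anhydrase induced by hypoxia, read 9.35 and 8.46 in vehicle, 7.84 and 8.50 with rapamycin alone, 7.16 and 7.21 with PD-0325901 alone and 6.84 and 7.08 in the combination (-1.95 ± 0.34, adjusted p = 0.359). Bnip3 read 10.60 and 10.44 against 9.38 and 9.48 (-1.09 ± 0.31), and P4ha1, a collagen prolyl hydroxylase, 11.91 and 11.48 against 10.58 and 11.14 (-0.83 ± 0.23). Angptl4, a lipoprotein lipase inhibitor that PPAR factors also induce, was the 1 gene higher at an unadjusted p under 0.05, at 10.32 and 9.16 against 10.56 and 11.11 (1.10 ± 0.41). Vegfa, the endothelial growth factor, read 11.36 and 9.94 against 9.62 and 10.01 and overlapped (-0.84 ± 0.47; -0.13 without vehicle array 1). Ero1a, an oxidase of protein folding, was likewise highest on vehicle array 1 (11.35 and 9.79 against 9.54 and 9.73). The list's mean of centred levels was 0.48 on vehicle array 1 and -0.08 on vehicle array 2, and its median difference was -0.17 without vehicle array 1, with 1 gene lower at an unadjusted p under 0.05; that count was 7 once vehicle array 2 was left out and 2 without combination array 1. Of 15 endothelial markers, 11 were lower, 8 of them without overlap (background 22.3%). At an unadjusted p under 0.05 there was 1, a share near the background of 4%. Their median was -0.35 (-0.15 to -0.49 with an array of either group left out). Their means of centred levels were 0.16 and -0.17 in vehicle and -0.32 and -0.23 in the combination. Cdh5, the junctional cadherin of endothelium, read 11.38 and 11.07 against 10.51 and 10.51 (-0.71 ± 0.26), and Flt1, a VEGF receptor, 9.85 and 9.06 against 8.61 and 8.79 (-0.75 ± 0.31). Erg, an endothelial ETS factor, differed by -0.44 ± 0.19, and Emcn and Cldn5 by -0.44 ± 0.26 and -0.68 ± 0.44. The part of vessel content in the hypoxia values was not tested.

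Lipid, amino acid and secretory genes under mTORC1 had smaller medians. For 18 sterol synthesis genes it was -0.29 (-0.11 without combination array 2), with 2 lower at an unadjusted p under 0.05 (at most 1 with any array of either group left out) and 10 without overlap. Insig1, which retains the SREBP complex, read 9.76 and 10.09 against 9.51 and 9.30 (-0.52 ± 0.20), and Dhcr7, the last reductase of cholesterol synthesis, 9.07 and 8.94 against 8.63 and 8.39 (-0.49 ± 0.20). Sqle and Cyp51, both SREBP targets, differed by -0.86 ± 0.45 and -0.65 ± 0.33, while Hmgcs1, at the head of the pathway, read 9.11 and 9.15 against 9.39 and 9.09 and overlapped. The 16 fatty acid synthesis genes had a median of -0.14 (0.00 without vehicle array 2) and 0 at an unadjusted p under 0.05; Fasn, fatty acid synthase, differed by -0.52 ± 0.33 and Acss2 by 0.44 ± 0.26. ATF4 and amino acid supply genes had a median of -0.26 over 25 members, with 19 lower. Slc1a5, a glutamine transporter, read 10.80 and 10.45 against 9.49 and 9.88 (-0.94 ± 0.32), and Phgdh, the first enzyme of serine synthesis, 10.65 and 10.23 against 9.94 and 9.89 (-0.53 ± 0.19). Slc1a4 was higher (9.07 and 9.57 against 10.12 and 9.72, 0.60 ± 0.22). Asns, asparagine synthetase, read 11.23 and 11.19 in vehicle, 10.64 and 9.72 with rapamycin alone, 11.33 and 10.82 with PD-0325901 alone and 9.92 and 10.76 in the combination (-0.87 ± 0.40, adjusted p = 0.602). In this list 3 members were lower at an unadjusted p under 0.05, 0 without vehicle array 1 or combination array 1, 5 without vehicle array 2 and 11 without combination array 2, when the median was -0.49. Combination array 1 thus had the lower levels.

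ER chaperone genes had the opposite imbalance. Their median was -0.16 over 20 members, -0.37 without combination array 1 and 0.09 without combination array 2, and 3 were lower at an unadjusted p under 0.05 (1 without vehicle array 1, 6 without combination array 1, 0 without vehicle array 2 or combination array 2). Hsp90b1, the chaperone GRP94, read 12.44 and 12.34 against 11.92 and 11.98 (-0.44 ± 0.15), and Sdf2l1 10.64 and 10.72 against 10.12 and 9.85 (-0.69 ± 0.27). Creld2, an ER stress target, differed by -0.54 ± 0.21. Lysosome and autophagy genes, which TFEB switches on when mTORC1 is inactive, had a median of 0.20 over 35 members (0.10 without vehicle array 2), with 25 higher, 3 at an unadjusted p under 0.05 (background 5.08%; 0 without combination array 1) and 17 without overlap (background 17.9%). Map1lc3a, an LC3 protein, read 9.39 and 9.67 against 10.32 and 9.92 (0.59 ± 0.17), and Mcoln1, the lysosomal calcium channel upstream of TFEB, 10.81 and 11.02 against 11.41 and 11.49 (0.54 ± 0.18). Npc1, an exporter of lysosomal cholesterol, differed by 0.32 ± 0.13. Atp6v0d2, a proton pump subunit of osteoclasts and macrophages singled out after its values were seen, read 11.95 on vehicle array 1 and 7.90 on vehicle array 2, against 7.36 and 6.74. Read from their symbols, 15 of 21 proton pump (Atp6v) genes were lower and 6 higher, with a median of -0.12 (0.05 without vehicle array 1). Of these, 0 had an unadjusted p under 0.05. Cathepsin genes were higher for 14 of 21, 4 of them at that level (background 5.08%), with a median of 0.15. Oxidative phosphorylation genes had a median of -0.23 over 23 members (-0.05 without vehicle array 1, 0.00 without combination array 2), with 1 lower at an unadjusted p under 0.05, Uqcrc2 of complex III (-0.50 ± 0.17), and 0 or 4 with an array of either group left out.

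Antigen presentation by MHC class II, which displays peptides to helper T cells and belongs to dendritic cells, macrophages and B cells, was higher in the combination. All 10 measured class II genes were higher, 6 at an unadjusted p under 0.05 (background 5.08%) and 8 without overlap (background 17.9%), with a median of 0.39. Ciita, the master activator of these genes, read 8.11 and 7.95 in vehicle, 7.90 and 8.03 with rapamycin alone, 9.06 and 9.15 with PD-0325901 alone and 9.24 and 8.79 in the combination (0.99 ± 0.17, adjusted p = 0.351). The 4 arrays with the MEK inhibitor were above the 4 without it. H2-Aa read 11.68 and 11.58 in vehicle, 11.03 and 11.03 with rapamycin alone, 12.38 and 12.45 with PD-0325901 alone and 12.19 and 11.91 in the combination (0.42 ± 0.12, adjusted p = 0.437). H2-Eb1 read 10.77 and 10.75 in vehicle, 10.12 and 10.30, 11.50 and 11.56, and 11.40 and 11.09 in the same order (0.49 ± 0.13). For both chains rapamycin alone was below vehicle and PD-0325901 alone above the combination. H2-Ab1 (0.44 ± 0.18), the invariant chain gene Cd74 (0.39 ± 0.15) and Ctss, the protease that trims the invariant chain (0.31 ± 0.10), had the same order of group means. The count of 6 became 2 without vehicle array 2 or combination array 1.

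The promoter windows of H2-Aa and H2-Eb1 are shown as examples that hold the motif described next. Other class II genes above had the same order of group means, so that order did not single them out. CTGATTGG, the Y box of class II promoters bound by NF-Y, was searched on both strands. Of the 7 class II genes with a window 3 held it (42.9%), H2-Oa being the other, against 4.70% of all genes. It begins 51 bases before the start of H2-Aa (chr17:34287774-34288073, minus strand) and 62 before that of H2-Eb1 (chr17:34305617-34305916, plus strand), and is in capitals. The share describes the list, which was written from textbook knowledge, and does not use the measured differences.
H2-Aa: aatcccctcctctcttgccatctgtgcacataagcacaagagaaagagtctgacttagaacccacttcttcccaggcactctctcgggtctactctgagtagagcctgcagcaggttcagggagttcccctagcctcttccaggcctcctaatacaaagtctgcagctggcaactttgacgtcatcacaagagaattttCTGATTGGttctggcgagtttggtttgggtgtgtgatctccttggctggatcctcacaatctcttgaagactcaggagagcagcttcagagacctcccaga
H2-Eb1: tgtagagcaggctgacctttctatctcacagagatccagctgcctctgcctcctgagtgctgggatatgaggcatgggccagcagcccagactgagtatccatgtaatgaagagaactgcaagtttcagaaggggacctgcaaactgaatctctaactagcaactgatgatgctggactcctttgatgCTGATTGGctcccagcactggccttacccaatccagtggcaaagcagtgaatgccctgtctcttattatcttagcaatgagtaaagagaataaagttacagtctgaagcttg

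Dendritic cell markers differed in the same direction as class II. Of 15, 13 were higher, 8 at an unadjusted p under 0.05 and 11 without overlap, with a median of 0.50 (0.42 to 0.66 when an array of either group was left out, with counts of 8 or 9). Pld4, an endolysosomal exonuclease of plasmacytoid cells, read 11.25 and 11 in vehicle and 11.92 and 11.81 in the combination (0.74 ± 0.12, adjusted p = 0.351). The nucleic acid sensors Tlr7 (9.46 and 9.37 against 10.35 and 10.19, 0.86 ± 0.16) and Tlr9 (9.74 and 9.53 against 10.42 and 10.59, 0.87 ± 0.19) and the plasmacytoid lectin Siglech (7.59 and 7.39 against 8.00 and 8.10, 0.56 ± 0.11) were alike. Flt3, the receptor for the dendritic growth factor, read 7.54 and 7.47 against 8.24 and 8.23 (0.73 ± 0.15), and Irf8, a factor of dendritic and monocyte identity, 10.02 and 9.73 against 10.63 and 10.59 (0.74 ± 0.16). PD-0325901 alone read 8.02 and 8.44 for Flt3 and 10.46 and 10.81 for Irf8, overlapping the combination, whereas rapamycin alone read 7.43 and 7.41, and 9.95 and 9.89. Siglech was lower with PD-0325901 alone (7.67 and 7.74) than in the combination. Itgax, the CD11c integrin, and Zbtb46, a factor of classical dendritic cells, were the 2 lower members, at -0.82 and -0.01. Macrophage markers had a median of 0.26 over 16, with 13 higher and 4 at an unadjusted p under 0.05 (1 without vehicle array 2, 0 without combination array 1); the median was 0.09 without combination array 1 and 0.51 without combination array 2. Trem2, a lipid receptor, read 10.45 and 10.25 against 10.91 and 10.78 (0.50 ± 0.14), Adgre1, an adhesion receptor that marks mouse macrophages, 11.16 and 10.90 against 11.53 and 11.42 (0.44 ± 0.14), and Mertk, an efferocytosis receptor, 9.73 and 10.14 against 10.93 and 10.95 (1.01 ± 0.35). Fcgr1 and Csf1r differed by 0.52 ± 0.17 and 0.44 ± 0.19. The part of dendritic cell and macrophage content in the class II values was not tested.

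**Figure D2:**
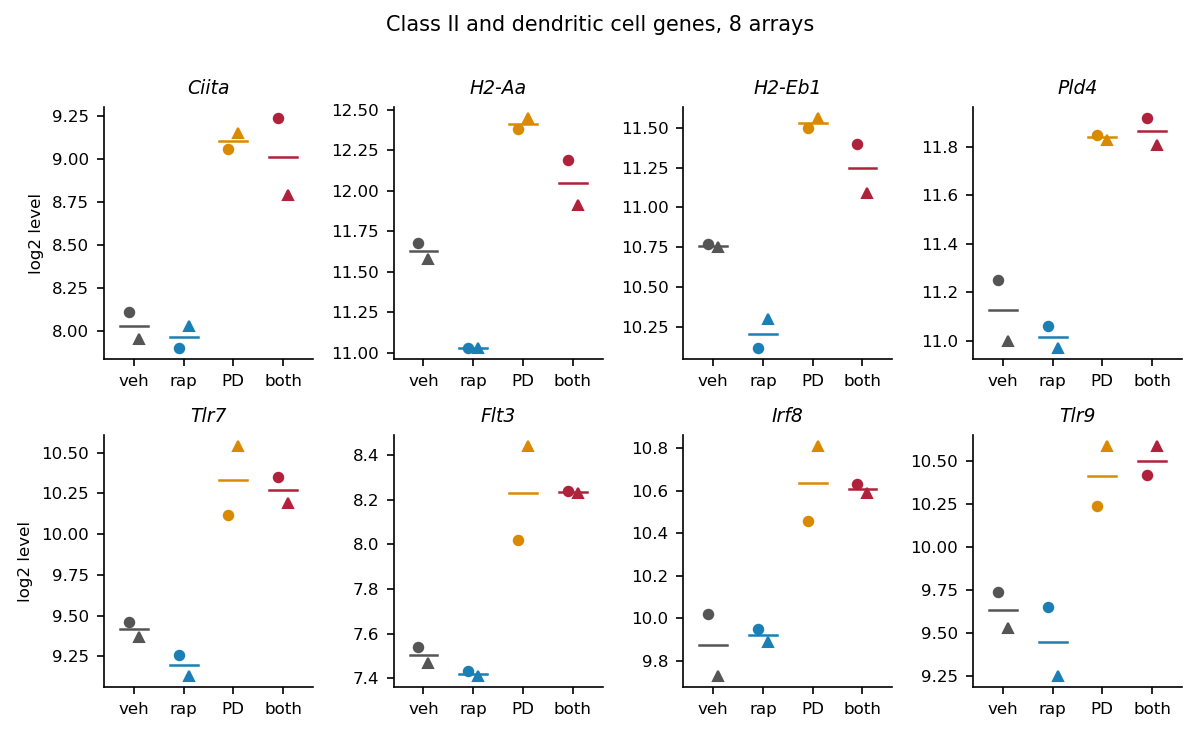
Log2 level (y axis, scaled per gene) of 3 class II and 5 dendritic cell genes in vehicle (veh), rapamycin (rap), PD-0325901 (PD) and the combination (both); circles are array 1, triangles array 2 and bars the group mean. All 4 arrays with the MEK inhibitor lie above the 4 without it in each panel, and H2-Aa and H2-Eb1 are lowest with rapamycin alone.

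Markers of T and NK cells were higher for 14 of 15 genes, with a median of 0.69, 3 at an unadjusted p under 0.05 and 9 without overlap. Nkg7, a cytotoxic granule protein, read 9.03 and 8.63 in vehicle, 7.55 and 8.07 with rapamycin alone, 8.88 and 10.29 with PD-0325901 alone and 9.60 and 10.92 in the combination (1.44 ± 0.60, adjusted p = 0.557). Gzmb, granzyme B, read 7.09 and 6.70 against 7.50 and 8.56 (1.14 ± 0.38), Cd28, the T cell costimulator, 7.01 and 6.83 against 7.78 and 8.37 (1.15 ± 0.36), and Ncr1, an NK receptor, 6.72 and 6.42 against 7.03 and 8.49 (1.19 ± 0.46). Combination array 2 held the higher value in all 4 genes. The list's mean of centred levels was 0.00 and -0.37 in vehicle and 0.09 and 0.87 in the combination, its median was 0.34 without combination array 2, and its count of 3 became 7 when combination array 1 was dropped and 0 for vehicle array 2 or combination array 2. The interferon response list was similarly split: 22 of 24 genes were higher, 0 at an unadjusted p under 0.05 and 6 without overlap, with a median of 0.43 that became 0.84 when combination array 1 was dropped, 0.76 for vehicle array 1, 0.08 for vehicle array 2 and 0.02 for combination array 2. Gbp3, an interferon-induced GTPase, read 9.28 and 8.62 against 9.41 and 9.96 (0.74 ± 0.31), and Irf9, of the interferon-stimulated transcription complex, 9.46 and 9.25 against 9.61 and 10.26 (0.58 ± 0.24). Class I presentation, which shows peptides of all cells to cytotoxic T cells, had a median of 0.29 over 14 genes (0.53 without vehicle array 1, 0.15 without vehicle array 2), with 3 higher at an unadjusted p under 0.05 (0 to 5 with an array of either group left out) and 7 without overlap. Tapbp, the peptide loader tapasin, read 10.97 and 10.48 against 11.38 and 11.30 (0.61 ± 0.17), Tap2, a peptide transporter subunit, 8.87 and 8.53 against 9.15 and 9.08 (0.42 ± 0.17), and Psmb9, an immunoproteasome subunit, 9.47 and 8.96 against 9.63 and 9.75 (0.47 ± 0.19).

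Inflammatory cytokines and chemokines had a median of -0.18 over 29 genes (0.02 without vehicle array 1), with 4 lower and 1 higher at an unadjusted p under 0.05. Beside Il1b, the lower genes were Tnf (8.28 and 7.94 against 7.43 and 7.48, -0.66 ± 0.22), the neutrophil chemokine Cxcl1 (9.46 and 9.38 against 8.43 and 9.03, -0.70 ± 0.24) and Ptgs2, the inducible prostaglandin synthase (10.50 and 11.33 against 9.31 and 8.06, -2.23 ± 0.86). The higher gene was Ccl5, a T cell and NK chemokine, at 10.60 and 9.98 against 10.83 and 12.21 (1.23 ± 0.49). With single drugs Tnf read 7.37 to 7.93, reaching the level of vehicle array 2, and Ptgs2 8.02 to 10.39. The lower count became 1 without vehicle array 1, 6 without vehicle array 2 and 2 without either combination array. Matrix genes and their proteases had a median of -0.04 over 27. Mmp10, the stromelysin whose gene lies in the first chromosome 9 run, read 8.97 and 9.17 against 7.09 and 7.58 (-1.74 ± 0.54) and was not higher on vehicle array 1 than on array 2. Timp2, an inhibitor of matrix metalloproteases, read 12.21 and 12.37 against 12.62 and 12.76 (0.40 ± 0.13), Mmp2 12.45 and 12.56 against 13.10 and 13.06 (0.58 ± 0.25), and Timp1 12.37 and 11.77 against 11.56 and 10.36 (-1.11 ± 0.45).

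The other cell type lists had at most 2 members in either direction at an unadjusted p under 0.05. Schwann cell and neural crest genes had a median of 0.05 over 16, with 0 at an unadjusted p under 0.05; Tfap2a, a neural crest factor, ranged from 6.65 to 8.89 within vehicle and read 8.97 and 10.29 in the combination (1.86 ± 0.83), Pmp22, a myelin protein, read 11.03 and 11.77 against 12.18 and 12.28 (0.83 ± 0.44), and Egr2, the myelination factor, 9.0 and 8.78 against 8.51 and 8.10 (-0.59 ± 0.29). Fibroblast markers had a median of 0.31 over 12 (-0.07 without vehicle array 1). The matrix protein gene Dpt read 9.03 on vehicle array 1 and 12.15 to 12.82 on vehicle array 2, both PD-0325901 arrays and both combination arrays, and Dcn, decorin, had a difference of 0.58 that became -0.22 without vehicle array 1. The fibroblast list's mean of centred levels was -0.73 on vehicle array 1 and also on rapamycin array 2, and 0.60 on rapamycin array 1. Skeletal muscle genes had a median of 0.35 over 12, -0.11 without vehicle array 2 and -0.28 without combination array 2, with means of centred levels of 0.21 and -0.79 in vehicle and -0.42 and 0.71 in the combination. Medians were 0.33 for 8 adipocyte genes, 0.13 for 9 mast cell genes, 0.02 for 10 B and plasma cell genes, 0.00 for 12 neutrophil genes, -0.03 for 9 epidermis genes, -0.05 for 10 neuron genes, -0.09 for 3 erythroid genes and -0.12 for 12 pericyte and smooth muscle genes. The pericyte median ran from -0.61 without combination array 1 to 0.10 without combination array 2; dropping vehicle array 1 gave 0.08 and dropping vehicle array 2 gave -0.54.

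**Figure D3:**
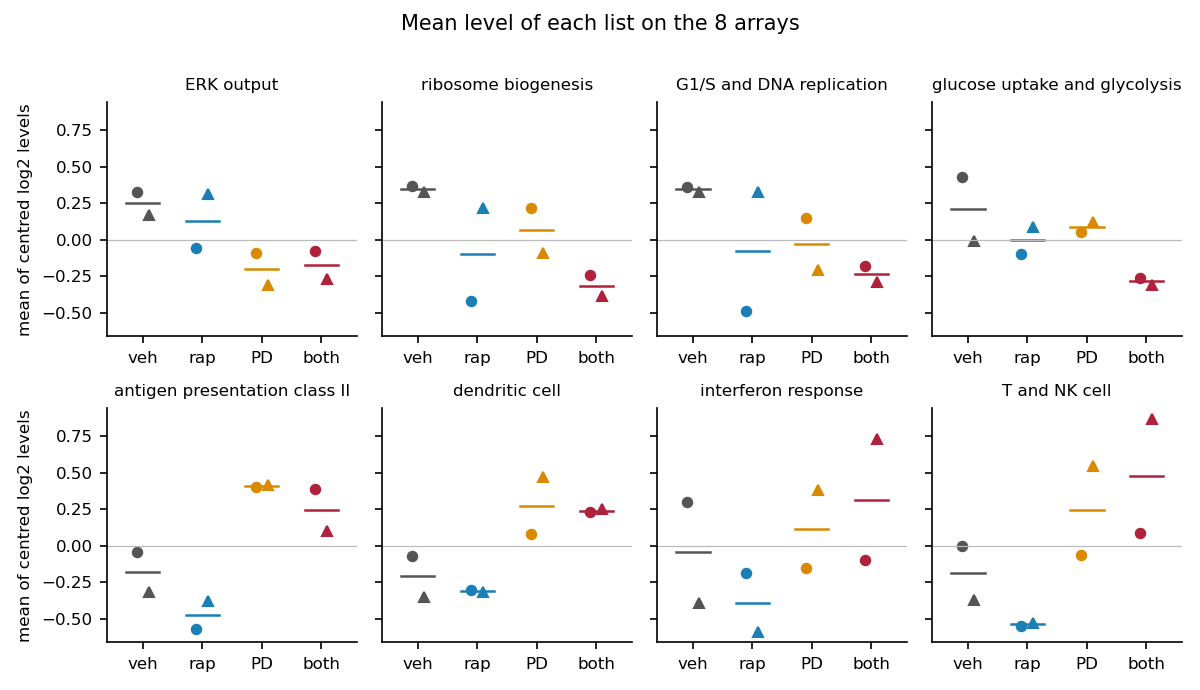
Mean of the members' log2 levels, each minus that gene's 8-array mean (y axis, shared scale), for 8 lists in vehicle (veh), rapamycin (rap), PD-0325901 (PD) and the combination (both); circles are array 1, triangles array 2 and bars the group mean. Ribosome biogenesis and G1/S separate vehicle (0.33 to 0.37) from the combination (-0.39 to -0.18), while the combination arrays lie far apart for interferon response (-0.10 and 0.73) and T and NK cells (0.09 and 0.87).

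Each drug alone was set beside the combination through the same 2 vehicle arrays, so these differences share controls. At an unadjusted p under 0.05, rapamycin alone had 2.77% of genes higher and 2.15% lower, and PD-0325901 alone 3.47% and 2.38%. These were 553 and 429 genes with rapamycin and 691 and 474 with PD-0325901. With no difference, 997 in all would be there for each drug. Median differences for combination, rapamycin alone and PD-0325901 alone were -0.43, -0.09 and -0.38 for ERK output, -0.51, -0.23 and -0.53 for immediate early genes, and -0.36, -0.11 and -0.36 for heat shock, in each case with the combination close to the MEK inhibitor. For ribosome biogenesis they were -0.69, -0.44 and -0.28, for G1/S -0.55, -0.41 and -0.39, for glycolysis -0.57, -0.21 and -0.07, and for hypoxia genes outside glycolysis -0.46, 0.00 and -0.17. In these 4 lists the combination had the most negative median. For ribosome biogenesis and G1/S that order rests on rapamycin array 2: the means of centred levels were -0.42 and -0.49 on rapamycin array 1, below both combination arrays, and 0.22 and 0.33 on rapamycin array 2. ATF4 genes (-0.26, -0.31 and -0.06) were nearest to rapamycin alone. Sterol synthesis genes (-0.29, 0.14 and -0.31) had opposite signs with the single drugs. So did class II genes (0.39, -0.27 and 0.64), dendritic cell markers (0.50, -0.11 and 0.59), T and NK cell markers (0.69, -0.29 and 0.32) and endothelial markers (-0.35, 0.36 and -0.05). For endothelial markers the rapamycin arrays were uneven, with means of centred levels of 0.63 on array 1 and 0.10 on array 2.

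**Figure D4:**
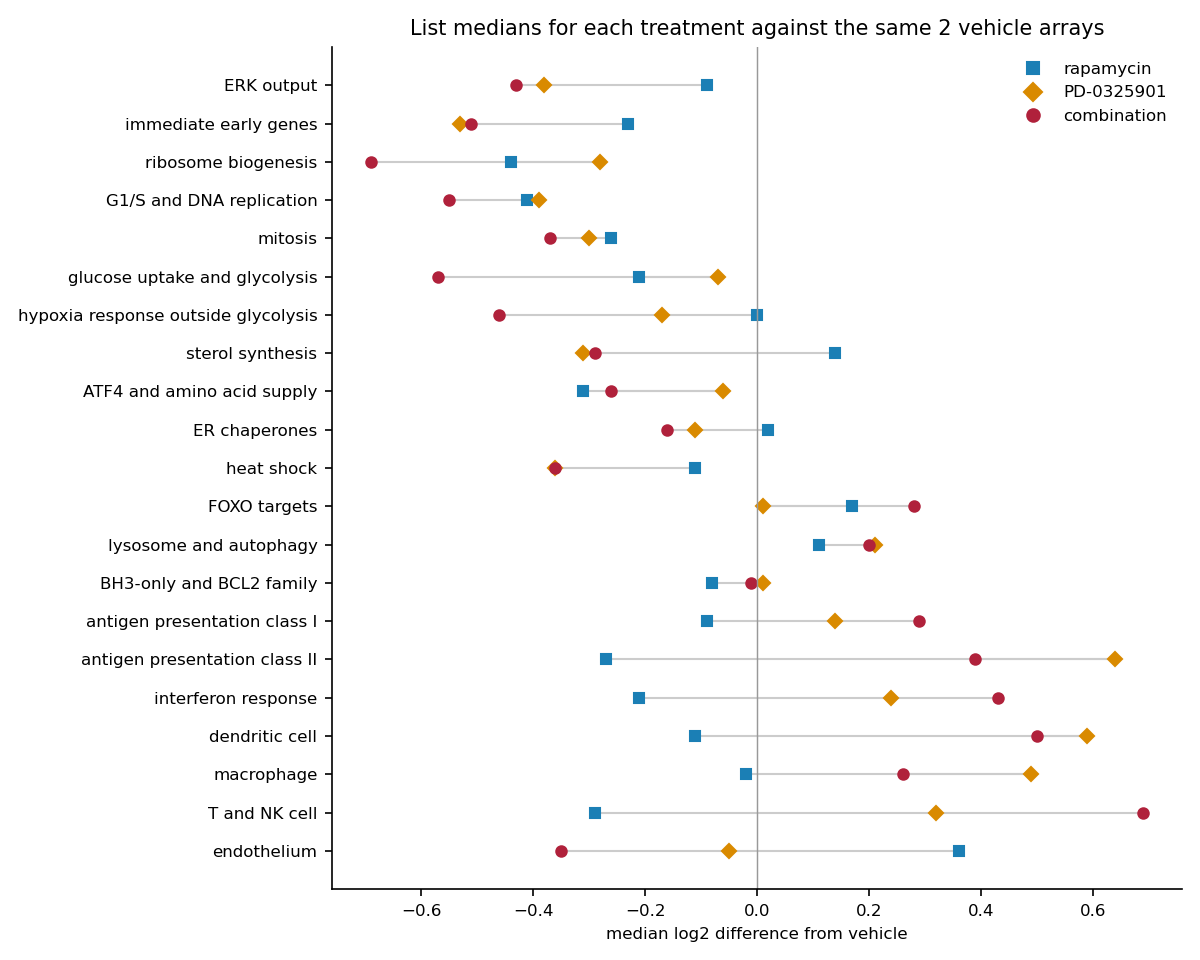
Median log2 difference from vehicle (x axis) of 21 lists (rows) for rapamycin alone (squares), PD-0325901 alone (diamonds) and the combination (circles); all 3 use the same 2 vehicle arrays. Circles lie left of both other symbols for ribosome biogenesis, G1/S, glycolysis and hypoxia genes, and beside the diamond for ERK output, immediate early genes and heat shock.

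The direct comparison with rapamycin alone asks what the MEK inhibitor adds, but it also carries the sex-linked split and the tissue markers of the rapamycin arrays described above. In it 0 genes passed the adjusted threshold (limma, lowest 0.573). At an unadjusted p under 0.05, 787 were higher in the combination (3.95%) and 540 lower (2.71%). H2-Aa was 1.02 ± 0.12 higher than with rapamycin alone (adjusted p = 0.573), H2-Eb1 1.04 ± 0.13, Ciita 1.05 ± 0.17, Tlr7 1.08 ± 0.16 and Cd300c2 1.05. At that threshold 8 of 10 class II genes, 10 of 15 dendritic cell markers and 10 of 15 T and NK cell markers were higher, and 8 of 15 endothelial markers, 5 of 19 glycolysis genes, 4 of 31 ERK output genes and 4 of 12 heat shock genes were lower. Endothelial means of centred levels were 0.63 on rapamycin array 1 and 0.10 on rapamycin array 2, against -0.32 and -0.23 in the combination. The part of tissue content in this comparison was not tested. Hbegf differed by -1.39 ± 0.30, Spred1 by -0.48 ± 0.09, Cdh5 by -1.01 ± 0.26 and Car9 by -1.22 ± 0.34. Compared with PD-0325901 alone, which asks what rapamycin adds, 0 genes passed (lowest 0.868), with 346 higher (1.74%) and 253 lower (1.27%) at an unadjusted p under 0.05. Together these were fewer than the 997 genes that would be there with no difference, so the differences that follow are values only. Ldha differed by -0.66 ± 0.15, Slc16a3 by -0.64 ± 0.21, Ltv1 by -0.59 ± 0.16, Haus6 by -0.58 ± 0.11, Ccne1 by -0.67 ± 0.22 and Il1b by -0.55 ± 0.20, and H2-Aa was also lower, by -0.36 ± 0.12. At that threshold 4 of 29 ribosome biogenesis genes, 3 of 19 glycolysis genes and 4 of 29 cytokine genes were lower, and 0 of 31 ERK output genes.

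The interaction asks whether the combination differed from the sum of the single-drug differences. It passed the adjusted threshold for 0 genes (limma; lowest 0.9999), with 206 above the sum (1.03%) and 228 below it (1.14%) at an unadjusted p under 0.05; without vehicle array 2, 2 genes of the second chromosome 9 run, Olfr846 and Olfr847, passed. The 434 genes at that unadjusted p in the main fit were fewer than the 997 that would be there with no difference. The genes named next are therefore given as values only. Above the sum, Gal3st4, a sulfotransferase, read 7.15 and 7.41 in vehicle, 6.60 to 6.70 with single drugs and 6.98 and 6.91 in the combination (interaction 0.93 ± 0.17). Fhod1, a formin (0.99 ± 0.18), and Palld, the actin cross-linker palladin (1.52 ± 0.29), also had single-drug means below those of vehicle and combination. Hoxa2, a hindbrain and neural crest homeobox gene, read 7.73 and 8.19 in vehicle, 6.49 to 7.65 with single drugs and 8.78 and 8.21 in the combination (2.69 ± 0.50). Below the sum, Tnfsf18, a costimulatory ligand, read 6.18 and 6.05 in vehicle, 7.32 and 7.37 with PD-0325901 alone and 6.37 and 6.13 in the combination (-1.21 ± 0.17), Rbmx, an X-linked splicing factor, 10.04 and 10.04 with rapamycin alone against 8.82 to 9.28 elsewhere (-1.16 ± 0.21), Cpne4, a calcium-binding copine, -1.0 ± 0.20, and Thnsl2 -0.77 ± 0.16. Among genes described above, picked here after their values were seen, Rgs1 (2.37 ± 0.46), Il1b (0.86 ± 0.28), Hspe1 (0.52 ± 0.14) and Irs2 (0.91 ± 0.26) were above the sum. In each, both single-drug means were below vehicle. For Irs2 the combination (10.02 and 9.54) overlapped vehicle (9.68 and 9.97).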

How the data were processed

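Total RNA of 8 samples was purified (Trizol, then RNeasy), amplified (NuGEN Applause WT-Amp ST) and hybridised to Affymetrix arrays, per the labels' protocols. The authors deposited 1 log2 value per probe set and array; the scale was read from the values (3.36 to 14.36), and the software, background correction and normalization behind them were not given in the sources used here. Of 35512 probe sets (1 empty), 21789 carried 1 gene symbol in the platform annotation, 1621 several and 12101 none; the most highly expressed probe set of each gene was kept (999 genes had several), without a filter on low values.

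limma 3.58.1 in R 4.3.3 fitted 4 group means (lmFit and eBayes, two-sided tests), leaving 4 residual and 1.98 prior degrees of freedom and Benjamini-Hochberg adjustment over 19938 genes (threshold 0.05), and checked on simulated data. Differences are log2 differences of group means. The number of arrays limits precision.

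Named genes are the 10 smallest p and 10 widest gaps per direction among genes whose groups do not overlap, up to 5 members with the smallest p per list, 4 interaction genes per direction and genes of prior interest; predicted genes are not named. Outside that rule, Spred2, Myc, Pgk1, Dkc1, Ubtf, H2-Ab1, Tlr9, Itgax, Zbtb46, Dpt and Yap1 were named after their values were seen, and Nop2 and H2-Oa for their promoters. The 42 lists (760 genes, 706 measured) were written from textbook knowledge. The comparison, members and lists were chosen with earlier results of these data known. Promoter windows are RefSeq's (GRCm38.p6). Alternatives are in the closing section.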

Additional observations from a re-analysis of the deposited data

How the results depend on the processing

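Each result was recomputed with quantile normalization, each array centred on its median, only genes above the median level, a robust prior and variance trend, probe sets averaged per gene, a block for the array number, only the groups compared, an adjusted p threshold of 0.1, and without each array in turn. The number of genes past the adjusted threshold was 0 for all 4 comparisons in each of these settings (the interaction needs all groups, so it was not run with only the groups compared) except without vehicle array 2, where it was 9 for combination against vehicle (range 0 to 9 over arrays left out) and 2 for the interaction (0 to 2). Array numbers did not pair the samples (correlation of deviations between vehicle and combination 0.08; -0.28 to 0.18 over all pairs of groups); with the replicate block, 0 genes passed, and 986 were higher and 740 lower at an unadjusted p under 0.05. Among only genes above the median level, fewer genes tested, 601 were higher and 445 lower. The count of lower genes ran from 414 (without combination array 2) to 1083 (without either rapamycin array); the cause was not tested.

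With only genes above the median level, which left no member of the epidermis list, 5 list medians moved by more than the spread between replicates: immediate early genes to -0.34, neutrophil to 1.0, B and plasma cell to -0.17, mast cell to -0.69 and neuron to 2.29, from the fewer genes tested. Leaving out an array moved 24 of 42. Their ranges were -0.18 to -0.01 for EGF family ligands (main -0.07), 0.13 to 0.28 for FOXO targets, 0.02 to 0.12 for glucose sensor targets, -0.66 to -0.31 for glycolysis, -0.60 to -0.17 for hypoxia, -0.32 to -0.11 for sterol synthesis, -0.19 to 0.00 for fatty acid synthesis, -0.37 to 0.09 for ER chaperones, -0.75 to -0.60 for ribosome biogenesis, -0.61 to -0.49 for G1/S, -0.06 to 0.17 for D cyclins and CDK inhibitors, -0.10 to 0.03 for mTOR complex and TSC, -0.09 to 0.11 for Ras and RasGAP genes, -0.61 to -0.38 for immediate early genes, 0.15 to 0.53 for class I, -0.18 to 0.09 for matrix, -0.44 to 0.00 for oxidative phosphorylation, 0.42 to 0.66 for dendritic cell, -0.16 to 0.04 for B and plasma cell, 0.02 to 0.25 for mast cell, -0.49 to -0.15 for endothelium, 0.13 to 0.38 for adipocyte, -0.16 to 0.03 for neuron and -0.25 to 0.13 for erythroid. Normalization turned the sign of 1 list median, mTOR complex and TSC. Of 207 genes under the naming rule, without members of the 11 lists given by median alone and for genes with a difference other than 0.00, 0 turned sign in the other settings and 5 when an array was left out: Arrdc4 (-0.07 to 0.19), Dcn (-0.22 to 1.37), Hmgcs1 (-0.04 to 0.26), Irs2 (-0.29 to 0.19) and Pdgfra (-0.77 to 2.69). Etv4, at 0.00, ran from -0.55 to 0.56.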

Other observations

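Gene families read from their symbols, chosen after the data were seen, add to the lists. Mitochondrial ribosomal protein genes were lower for 61 of 77, 12 at an unadjusted p under 0.05 (background 4%), with a median of -0.19 (3 without combination array 2, 8 without either vehicle array, median -0.10 without vehicle array 1). Translation initiation factor genes were lower for 40 of 49 (11 at that level, 5 without vehicle array 1 or combination array 2, median -0.22), mitochondrial import genes (Timm and Tomm) for 20 of 24 (7, median -0.23, with 3 and -0.15 without combination array 2 and 4 and -0.10 without vehicle array 1), RNA polymerase subunit genes for 24 of 27 (5, or 2 without combination array 2 and 3 without vehicle array 1, median -0.30) and cytosolic chaperonin genes (Cct) for 8 of 9 (2, or 1 without vehicle array 1, median -0.38, or -0.25 without that array). Cytosolic ribosomal protein genes had 44 of 55 lower but 2 at that level (0 to 4 with an array of either group left out, median -0.10, or -0.02 without vehicle array 1). On the higher side were zinc finger genes, 221 of 347 (37 at an unadjusted p under 0.05, background 5.08%, median 0.08; 13 and 0.02 without vehicle array 1, 22 without combination array 1, 23 without combination array 2, and a median of 0.17 without vehicle array 2), killer cell lectin receptor genes, 19 of 23 (5, median 0.34; 11 and 0.69 without combination array 1, 0 without any of the other 3 arrays, and a median of 0.06 without combination array 2), and Cd300 receptor genes, 7 of 8 (3, or 2 without either vehicle array, median 0.42), the last including Cd300c2 described above.

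A microRNA run on chromosome 12, Mir431 to Mir377, had window medians of centred levels of -1.49 on vehicle array 1 and 0.53 on vehicle array 2, and 0.16 and -0.92 on the combination arrays, so it differed within groups rather than between them.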
